A study of Mus musculus and Rattus norvegicus with 14 samples.

Results

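Interferon-stimulated genes are the genes that cells switch on when interferon binds its receptor. The 44 described here were chosen by gene name, from a list of such genes, out of 54532 genes in the mouse table and 33600 in the rat table. All 44 were found by name in the mouse table and 39 in the rat table. Oasl1, Trim30a, Ifi27l2a, Samd9l and Ifi204 were not matched in the rat. The list was sorted into 8 role groups: sensors of viral nucleic acid, transcription factors, IFIT proteins with the kinase PKR, oligoadenylate synthetases, antiviral effectors, ISG15 with its enzymes, ubiquitin and ADP-ribose enzymes, and other induced genes.

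Messenger RNA was sequenced in 12 libraries of mouse heart, 3 in each of the groups LQ-40, SQ-3, Model and Sham; the hearts of a group, below, are its 3 libraries. LQ-40 and SQ-3 are coded compounds of similar structure, which the study compared for their effect on scarring of the heart muscle. The model procedure, strain, age, dose and time are not in the labels used here, nor is it stated that hearts given LQ-40 or SQ-3 also had the model procedure. Separate animals for each library are not named either: the p-values thus measure the spread between these samples alone, which may be technical. A further pair of libraries came from primary rat cells: 1 from a 3D co-culture (3D-OGD-MF in the design text, under a title that speaks of hypoxia) and 1 from 2D cells mixed 1:1:1. The labels name cardiomyocytes, macrophages derived from bone marrow, and cardiac fibroblasts for both rat libraries.

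In the textbook pathway, RNA or DNA of a virus is bound by sensors such as RIG-I and MDA5, and adaptor proteins pass the signal on until type I interferon is secreted. When interferon binds the receptor IFNAR, the kinases JAK1 and TYK2 phosphorylate transcription factors such as STAT2, which join IRF9 in a complex that enters the nucleus. The complex binds the interferon-stimulated response element, a short DNA element in the promoters of its target genes, and the proteins made from those genes block steps of viral growth. Healthy hearts express a low tonic level of many of these genes.

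The core of the response element is the letters GAAA, any 2 bases, and GAAA again. It was searched on both strands (TTTC, 2 bases and TTTC on the other strand), with overlapping matches all counted, in RefSeq promoter windows of 300 bases on GRCm38.p6, from 250 bases before to 50 after the start of each gene. Windows were matched by symbol for 32 of the 44 genes, and 13 of these 32 (40.6%) held the core. Among all 27025 genes with a window 1079 (3.99%) held it. Of the other genes of the pathway listed below, ligands left out, 3 of the 27 with a window (11.1%) did. A match of letters is a description and not a measured binding site. The upstream parts of the Isg15 and Ifit1 windows are shown as examples with several copies. The windows of Ifit3, Oas1a, Bst2 and Ifitm3 also held 2 matches each. Capitals mark the core, and in Isg15 3 matches overlap in 1 run.
Isg15 (chr4:156200819-156201068, minus strand): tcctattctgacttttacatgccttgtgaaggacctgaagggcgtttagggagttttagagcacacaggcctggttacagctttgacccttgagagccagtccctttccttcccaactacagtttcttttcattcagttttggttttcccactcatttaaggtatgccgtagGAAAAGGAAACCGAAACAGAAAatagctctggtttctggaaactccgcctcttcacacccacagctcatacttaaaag
Ifit1 (chr19:34640639-34640888, plus strand): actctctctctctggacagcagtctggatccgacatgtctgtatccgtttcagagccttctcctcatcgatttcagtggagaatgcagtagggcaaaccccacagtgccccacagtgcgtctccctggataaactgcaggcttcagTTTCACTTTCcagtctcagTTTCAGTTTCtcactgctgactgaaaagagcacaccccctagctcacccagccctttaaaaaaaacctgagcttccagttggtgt

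The other 11 genes with a match are shown by the match nearest the gene's start with up to 10 bases on each side, again with the core in capitals and in the direction of the gene, so that the bases between and around the core can be compared. Their first base lay between position -222 (Stat2) and position 33 (Ifih1), counted from the start on which RefSeq centres the window. A gene with more than 1 window counted where any held the core. That applies to Trim30a, whose match lies at an alternative start inside the gene as the mouse table places it (chr7:104409025-104465193).
Ddx58 (chr4:40239804-40239833, minus strand): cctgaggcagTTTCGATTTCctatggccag
Ifih1 (chr2:62646206-62646233, minus strand): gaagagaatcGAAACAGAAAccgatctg
Stat2 (chr10:128270266-128270295, plus strand): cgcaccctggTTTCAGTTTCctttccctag
Ifit3 (chr19:34583397-34583426, plus strand): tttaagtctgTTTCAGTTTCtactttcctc
Eif2ak2 (chr17:78882535-78882564, minus strand): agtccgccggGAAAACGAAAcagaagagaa
Oas1a (chr5:120907520-120907549, minus strand): tcgggaaatgGAAACTGAAAatctacttcc
Oas3 (chr5:120777715-120777744, minus strand): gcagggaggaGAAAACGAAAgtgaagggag
Rsad2 (chr12:26456553-26456582, minus strand): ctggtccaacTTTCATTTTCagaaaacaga
Bst2 (chr8:71537577-71537606, minus strand): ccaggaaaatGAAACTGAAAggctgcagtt
Ifitm3 (chr7:141010723-141010752, minus strand): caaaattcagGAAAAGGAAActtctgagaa
Trim30a (chr7:104446104-104446133, minus strand): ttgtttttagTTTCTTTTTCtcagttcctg

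No match was found in the windows of Irf1, Irf7, Irf9, Ifit2, Oasl1, Oasl2, Cmpk2, Ifi47, Herc6, Trim25, Dtx3l, Rnf213, Ifi44, Ifi35, Xaf1, Samd9l, Epsti1, Sp100 and Lgals3bp. Several of the 44 genes are neighbours on the mouse chromosomes of GRCm38. Ifit2 (chr19:34550694-34576419), Ifit3 (chr19:34583531-34588731) and Ifit1 (chr19:34640871-34650009) lie in a row on the plus strand. Oas2 (chr5:120730333-120749853), Oas3 (chr5:120753098-120777661) and Oas1a (chr5:120896256-120907521) lie in a row on the minus strand of chromosome 5, with Oasl2 (chr5:114896936-114912234) and Oasl1 (chr5:114923240-114937915) on the plus strand of the same chromosome. Rsad2 (chr12:26442746-26456452, minus strand) and Cmpk2 (chr12:26469204-26479837, plus strand) point away from each other, as do Dtx3l (chr16:35926511-35939151, minus strand) and Parp9 (chr16:35938470-35972605, plus strand), whose starts overlap.

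Reads assigned to genes numbered 13085370 to 16698987 per mouse library, 11910160 in the rat 3D library and 13262387 in the rat 2D library. Values are scaled FPKM: the deposited FPKM (reads per kilobase of gene, relative to depth), divided by a factor per library that sets the typical gene level. Tests were limma fits over 13000 mouse genes that reached 1 FPKM in 3 or more libraries, as all 44 did, with Benjamini-Hochberg adjustment over those genes and a threshold of 0.05. A gene is said to have risen or fallen only where it passed. Fold changes and log2 differences are of scaled FPKM + 1, so changes of low genes are understated. Checked against the heart label, the cardiomyocyte gene Actc1 lay at 3482 to 8382 scaled FPKM in the mouse libraries. Reads of the mitochondrial genome took 15.9 ± 5.05% in LQ-40, 17.0 ± 2.68% in SQ-3, 13.4 ± 2.37% in Model hearts and 19.9 ± 4.68% in those of Sham (SD, n = 3 per group).

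The first comparison asks how the model state differed from Sham. A gene that fell had a lower level than in Sham hearts. A raised level in Sham and a lowered level in the other groups cannot be told apart, as no further heart group was sequenced. In Model hearts 43 of the 44 genes fell and 0 rose, where 18.0% of all tested genes fell, 20.9% rose and 38.9% changed in either direction. The median log2 difference over the 44 genes was -2.01, a 4.02-fold lower level, against 0.03 over all genes. In 42 of the 44 genes every Model library lay below every Sham library, which was so for 25.7% of all genes. The 44 genes summed to 408 to 636 scaled FPKM in Model libraries, against 1857 to 2600 in Sham libraries. All 8 role groups held genes that fell, and the IFIT group had the largest median difference, at -3.55 on the log2 scale.

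**Figure D1:**
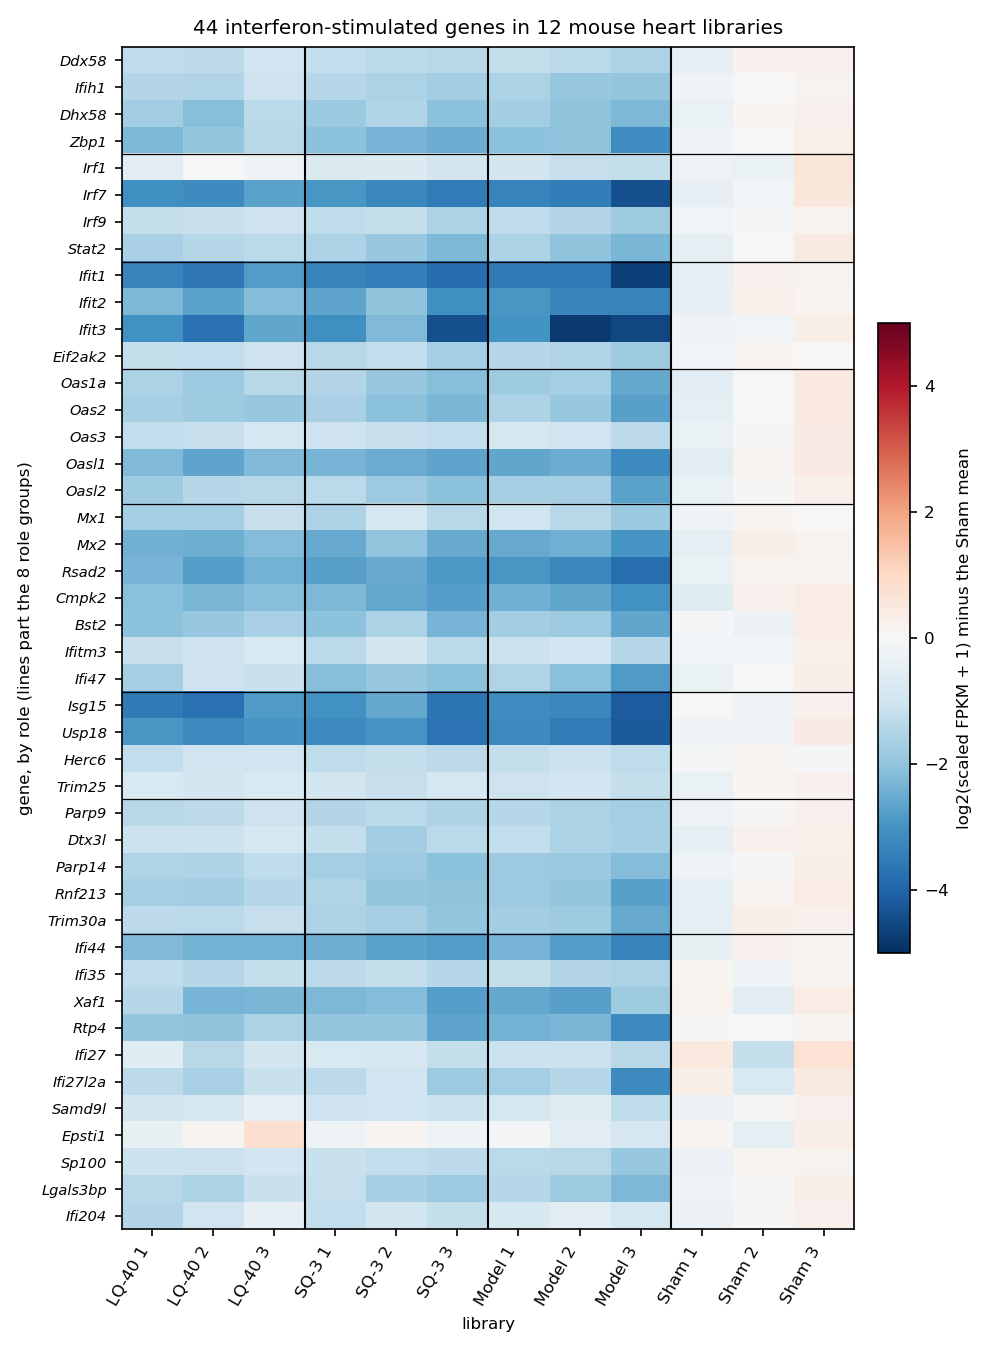
Level of each of the 44 genes (rows, by role group) in each mouse library (columns), as log2(scaled FPKM + 1) minus the mean of the 3 Sham libraries; blue is below and red above that mean. The LQ-40, SQ-3 and Model columns are blue for nearly every gene, and Model 3 was the lowest of the 12 libraries for 39 genes.

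All 4 sensors fell, by 1.35 to 2.39 on the log2 scale. Ifih1, which encodes the RNA sensor MDA5, had 2.73, 2.03 and 1.85 scaled FPKM in Model hearts, against 8.85, 10.4 and 11.7 in Sham hearts (3.53-fold lower at an adjusted p of 7.60e-05). Dhx58, which encodes LGP2, a relative of RIG-I that tunes its signal, had 1.85, 1.37 and 1.02 in Model hearts and 6.74, 9.33 and 10.1 in Sham hearts (4.02-fold lower at an adjusted p of 0.000288). No Model library reached the lowest Sham library in either gene. Ddx58 (RIG-I) fell 2.55-fold and Zbp1, a sensor of Z-form nucleic acid, 5.23-fold.

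The 4 transcription factors fell as well. Irf7, the factor that amplifies type I interferon production, had 5.20, 4.78 and 2.05 scaled FPKM in Model hearts, against 47.1, 56.1 and 92.3 in Sham hearts (13.3-fold lower at an adjusted p of 4.45e-05). Irf9, a DNA-binding part of the complex that interferon activates, had 6.73, 5.76 and 4.36 in Model hearts and 15.9, 16.99 and 20.03 in Sham hearts (2.84-fold lower at an adjusted p of 0.000157). Irf7 differed more between groups than Irf9, and in both the Model and Sham libraries were apart. Stat2, another part of the complex, fell 3.89-fold, and Irf1, an activator that responds mainly to interferon gamma, fell 2.12-fold. Irf7 shares exon bases with Phrf1 on the other strand and Irf9 with Rnf31 on the same strand, and how such reads were counted is not stated. Phrf1 itself was 1.25-fold higher in Model hearts (adjusted p = 0.0345), and Rnf31 was 1.82-fold lower (adjusted p = 0.0122).

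IFIT proteins bind foreign RNA and block its translation, and PKR halts translation when it meets long paired RNA. Ifit1 had 4.31, 4.28 and 1.43 scaled FPKM in Model hearts, against 45.98, 70.8 and 68.3 in Sham hearts (15.1-fold lower at an adjusted p of 4.45e-05). Ifit2 had 6.96, 5.13 and 4.97 in Model hearts and 44.5, 71.5 and 65.5 in Sham hearts (9.10-fold lower at an adjusted p of 4.95e-05). The groups were far apart in both genes, and Model 3 was the lowest of the Model libraries. Ifit3, whose reads may be split with its near-identical copy Ifit3b, was 17.3-fold lower, the largest fall of the 44 genes on the scale of scaled FPKM + 1. That scale does not rank it against genes with lower Model means, such as Ifit1 and Usp18. The standard error of Ifit3 was 0.56 on the log2 scale, the widest of the list: Model 1 had 11.2 scaled FPKM where the other Model libraries had 2.61 and 3.19. Eif2ak2, the gene of PKR, fell 2.97-fold.

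The 5 oligoadenylate synthetase genes fell by 1.06 to 2.75 on the log2 scale. The enzymes of this family make short oligoadenylates that activate RNase L, although some OAS-like members lack that activity. Oasl1, which in the mouse restrains translation of Irf7, had 1.20, 1.44 and 0.494 scaled FPKM in Model hearts and 8.18, 13.7 and 17.1 in Sham hearts (6.72-fold lower at an adjusted p of 0.00011). Oasl2 had 5.54, 5.68 and 2.25 in Model hearts and 15.7, 20.99 and 23.9 in Sham hearts (4.01-fold lower at an adjusted p of 0.000901). In both genes Model 3 held less than any other library of the group. Oas3 was the lowest of the list in level, with means of 0.343 ± 0.203 scaled FPKM in Model hearts and 1.84 ± 0.765 in Sham hearts (SD, n = 3 per group). It reached 1 FPKM in the Sham libraries only, so it passed the filter through the group where it is high. Herc6 and Mx1, of other role groups, also needed the Sham libraries to pass. Outside Sham, Herc6 reached 1 FPKM in LQ-40 2 only, and Mx1 in SQ-3 2 and Model 1 only. The falls of Oas3, Herc6 and Mx1 were thus favoured by the filter. That also holds in the comparisons of LQ-40 and SQ-3 with Sham, where they are also counted.

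Among the 7 antiviral effectors, Rsad2 (viperin, which makes a chain-ending nucleotide) had 2.59, 1.84 and 0.946 scaled FPKM in Model hearts, against 20.1, 29.3 and 28.6 in Sham hearts (9.85-fold lower at an adjusted p of 2.86e-05). Mx2, a dynamin-like GTPase, had 1.05, 1.22 and 0.486 in Model hearts and 7.28, 13.4 and 12.1 in Sham hearts (6.13-fold lower at an adjusted p of 8.22e-05). Neither gene overlapped between groups. Cmpk2, a nucleotide kinase and the neighbour of Rsad2, fell 6.36-fold. Ifitm3, which hinders fusion of virus and cell membranes and was the most abundant per length of the 44 genes, fell 2.21-fold, with 226, 244 and 177 in Model hearts and 435, 435 and 567 in Sham hearts. Bst2 (tetherin, which holds budding virus at the cell surface) fell 4.13-fold, Ifi47, a GTPase, 4.44-fold and Mx1 2.67-fold.

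ISG15 is a ubiquitin-like protein that is joined to other proteins, by Herc6 in the mouse, and is removed by Usp18, which also dampens signalling at the receptor. Usp18 had 2.83, 2.11 and 0.924 scaled FPKM in Model hearts, against 28.8, 29.9 and 45.2 in Sham hearts (12.3-fold lower at an adjusted p of 2.86e-05). Isg15 had 11.8, 10.9 and 5.27 in Model hearts and 110.03, 93.8 and 128 in Sham hearts (11.3-fold lower at an adjusted p of 0.000128). On the scale of scaled FPKM + 1, the modifier and the enzyme that removes it thus fell by like factors. Herc6 fell 2.27-fold and Trim25, a ubiquitin ligase that acts on RIG-I, 2.11-fold. That scale understates the falls of Usp18 and Herc6, whose Model means were 1.96 and 0.768, so these factors do not rank the genes.

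Of the 5 ubiquitin and ADP-ribose enzymes, Parp14, an ADP-ribosyltransferase, had 5.18, 5.03 and 3.80 scaled FPKM in Model hearts and 17.8, 19.8 and 25.4 in Sham hearts (3.87-fold lower at an adjusted p of 4.17e-05). Parp9, which works in a complex with Dtx3l, had 7.04, 6.28 and 5.69 in Model hearts and 17.5, 21.4 and 23.96 in Sham hearts (2.98-fold lower at an adjusted p of 5.54e-05). The libraries of each group lay close together in these genes. Dtx3l fell 2.80-fold, but shares exon bases with Parp9 on the other strand, so the 2 are not separate measurements if counting ignored strand. Rnf213, a large ubiquitin ligase, fell 4.44-fold and Trim30a 4.05-fold.

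The last group held 11 genes, of which 10 fell. Ifi44 had 2.42, 1.496 and 0.679 scaled FPKM in Model hearts and 12.1, 18.8 and 17.8 in Sham hearts (6.97-fold lower at an adjusted p of 4.95e-05). Rtp4, a chaperone of receptors on their way to the membrane, had 6.90, 7.38 and 3.52 in Model hearts and 37.1, 40.6 and 42.5 in Sham hearts (6.13-fold lower at an adjusted p of 0.000116). Ifi27 and Epsti1 were the exceptions to the clean split. Ifi27, a small mitochondrial protein, had 39.7, 39.2 and 31.6 scaled FPKM in Model hearts and 117, 35.8 and 140.03 in Sham hearts, so that Sham 2 lay inside the Model range. Its adjusted p of 0.0438 passed narrowly, and did not pass with quantile normalization (0.0602), with no filter on low genes (0.0987), with only these 2 groups in the fit (0.0831), or when any single Model library, Sham 1 or Sham 3 was left out (0.0777 to 0.149). Epsti1 had 2.48, 1.53 and 1.06 in Model hearts and 2.92, 1.66 and 3.65 in Sham hearts; it missed the threshold (log2 difference -0.47, adjusted p = 0.243). Ifi27l2a, which followed Ifi27 in being low in Sham 2, had 72.7, 88.3 and 25.6 in Model hearts and 298, 142 and 326 in Sham hearts, without overlap (4.31-fold lower at an adjusted p of 0.00558). The remaining genes of the group fell 1.68-fold (Ifi204, a DNA sensor with close relatives) to 5.12-fold (Xaf1).

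**Figure D2:**
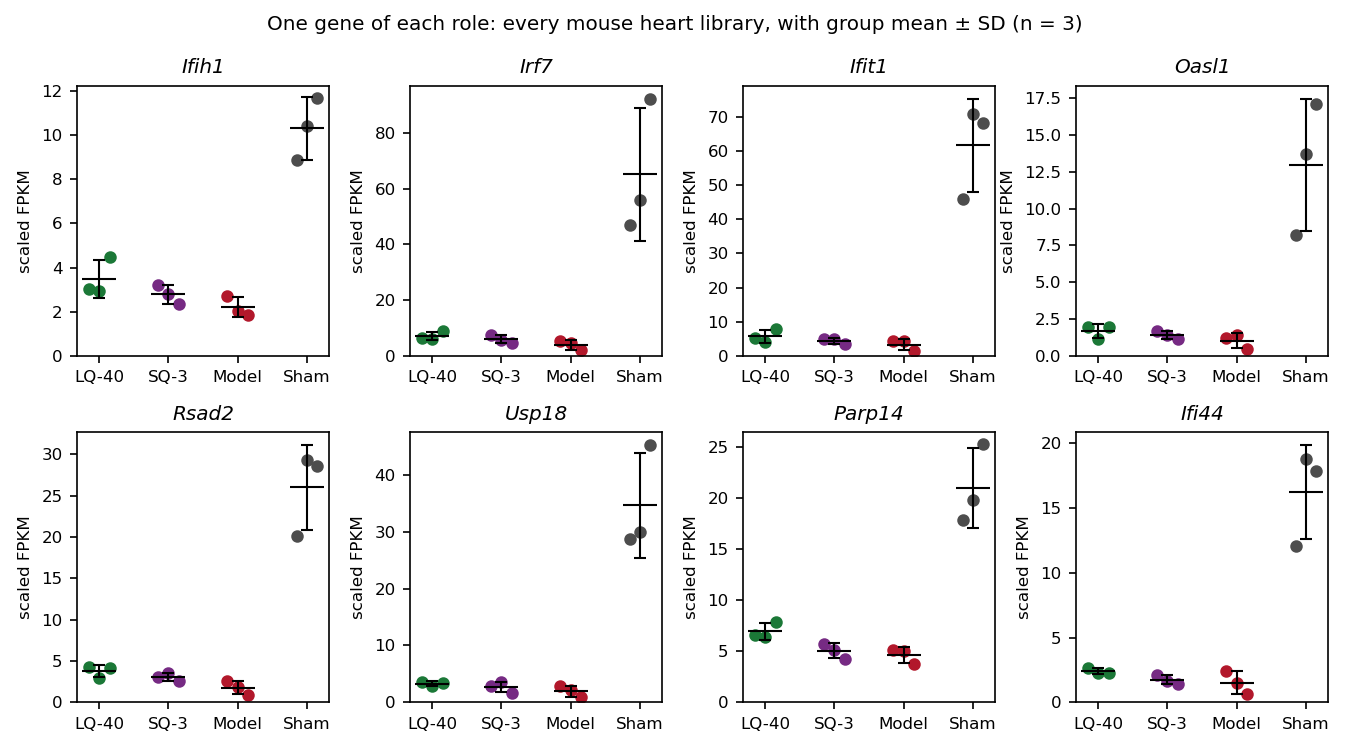
Scaled FPKM of the gene with the smallest p in each role group (Model against Sham), 1 point per library, with the group mean and SD (n = 3). The LQ-40, SQ-3 and Model points all lie far below the lowest Sham point; for Irf7 the 3 Model libraries had 2.05 to 5.20 and the 3 Sham libraries 47.1 to 92.3.

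Of 55 other genes of the interferon pathway found in the mouse, 30 passed the filter, and in Model hearts 7 rose and 7 fell. These shares are close to the 20.9% of all genes that rose and the 18.0% that fell. Nlrc5, an activator of genes of antigen presentation, fell 4.12-fold (adjusted p = 0.000409), and Adar, which edits paired RNA, fell 2.26-fold (adjusted p = 0.00158). Ifnar1, a chain of the type I receptor, rose: it had 13.1, 12.9 and 10.9 in Model hearts and 5.76, 6.91 and 7.18 in Sham hearts (1.75-fold higher at an adjusted p of 0.00137). Ticam1, the adaptor TRIF, rose 1.45-fold (adjusted p = 0.0056), and the RNA sensor Tlr3, which uses TRIF, fell 1.39-fold (adjusted p = 0.00662). By list, 2 of 9 receptors and kinases rose and 3 fell, and 4 of 13 sensing adaptors and kinases rose and 1 fell. In the list of 8 negative regulators, which also held Nlrc5, 1 rose (Socs3) and 3 fell. None of the 21 interferon ligand genes passed the filter: 19 were listed at 0 in all 12 libraries and no ligand gene had more than 4 reads in any library. Trex1, a widely expressed nuclease gene, was also listed at 0 in all 12 mouse libraries but had 215 reads in the rat 3D library and 193 in the rat 2D library. A listed 0 can therefore come from the counting, and the near-identical Ifna genes depend on how reads with several matches were treated, so these zeros do not show that ligand transcripts were absent.

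Markers of cell types moved between the same groups, where 20.9% of all tested genes rose and 18.0% fell. In hearts measured in bulk, fewer cells of a type and less RNA per cell cannot be told apart. Of 9 macrophage markers 6 rose and 1 (Fcgr1, which itself responds to interferon gamma) fell in Model hearts, with a summed level of 420 to 526 scaled FPKM in Model and 225 to 313 in Sham libraries, none of them at 0. All 5 fibroblast markers rose, with sums of 1617 to 1783 in Model and 376 to 414 in Sham libraries. Of 6 cardiomyocyte markers 5 fell, with sums of 6982 to 8249 in Model and 13260 to 15175 in Sham libraries, none at 0. Of 8 endothelial markers 2 rose, a share near that of all tested genes. Their sums overlapped, at 264 to 303 in Model and 256 to 339 in Sham libraries. The 4 markers of plasmacytoid dendritic cells, which secrete much interferon, summed to 0.669 to 1.81 in Model and 0.307 to 0.470 in Sham libraries, with Siglech and Klk1 at 0 in some of them. The part of these markers in the fall of the 44 genes was not tested.

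**Figure D3:**
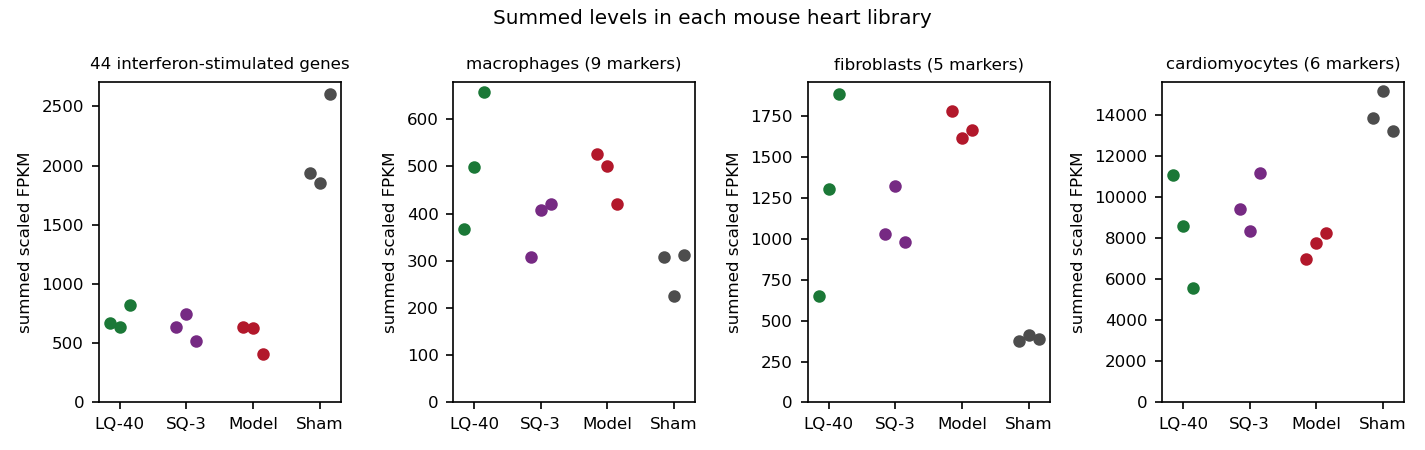
Summed scaled FPKM in each mouse library (1 point each, 4 groups) of the 44 genes and of macrophage, fibroblast and cardiomyocyte markers. The sum of the 44 genes was 408 to 823 in the LQ-40, SQ-3 and Model libraries and 1857 to 2600 in the Sham libraries, while the macrophage and fibroblast sums were higher in Model than in Sham libraries.

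The next comparisons ask whether the compounds shifted these genes away from the Model level. Both use the same 3 Model libraries, so they are not independent of each other or of the comparison with Sham. In LQ-40 hearts 0 of the 44 genes passed the limma test against Model, where 0.669% of all genes did; limma-voom on recovered reads also gave 0. At an unadjusted p under 0.05 there were 15 of 44, against 12.1% of all genes, and the log2 difference was above 0 in 41 of 44, against 51.1% of all genes. Every LQ-40 library lay above every Model library in 17 genes, against 7.28% of all genes. The median log2 difference was 0.47, against 0.01 over all genes. These counts leaned on single libraries: without Model 3 the median was 0.24 with 6 genes under 0.05, without Model 1 it was 0.57 with 23 genes, and without LQ-40 3 it was 0.35 with 10 genes.

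Rsad2 and Irf1 had the smallest unadjusted p of the 44 genes. Rsad2 had 4.27, 2.91 and 4.14 scaled FPKM in LQ-40 hearts, against 2.59, 1.84 and 0.946 in Model hearts, a log2 difference of 0.81 (SE 0.22, adjusted p = 0.151). Irf1 had 9.09, 14.3 and 11.8 in LQ-40 hearts and 6.97, 5.86 and 5.66 in Model hearts, a log2 difference of 0.81 (adjusted p = 0.161). In both genes the LQ-40 and Model libraries did not overlap, and for Irf1 the LQ-40 libraries reached into the Sham range of 10.9 to 21.8. Among sensors the smallest unadjusted p was that of Ifih1, with 3.03, 2.92 and 4.48 in LQ-40 hearts and 2.73, 2.03 and 1.85 in Model hearts (adjusted p = 0.258). Ifit2 had 11.7, 8.53 and 12.3 in LQ-40 hearts and 6.96, 5.13 and 4.97 in Model hearts (adjusted p = 0.228). Both again lacked overlap, by a small margin for Ifih1. Parp14 had 6.59, 6.38 and 7.92 in LQ-40 hearts and 5.18, 5.03 and 3.80 in Model hearts (adjusted p = 0.209), and all 5 genes of its group lay above Model without overlap. Sp100, a protein of nuclear bodies, had 8.05, 7.96 and 8.67 in LQ-40 hearts and 6.45, 6.16 and 4.12 in Model hearts (adjusted p = 0.207). Usp18 had 3.60, 2.89 and 3.48 in LQ-40 hearts and 2.83, 2.11 and 0.924 in Model hearts (adjusted p = 0.402), whereas Isg15 overlapped, with 8.68, 7.42 and 14.6 in LQ-40 hearts and 11.8, 10.9 and 5.27 in Model hearts. None of the 5 oligoadenylate synthetase genes separated the groups; Oasl2 had 5.18, 6.86 and 6.94 in LQ-40 hearts and 5.54, 5.68 and 2.25 in Model hearts. Oas3, Mx1 and Ifi204 had log2 differences below 0, at -0.01, -0.08 and -0.21.

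In SQ-3 hearts 0 of the 44 genes passed against Model, where 0.346% of all genes did, and limma-voom also gave 0. Unadjusted, 2 had a p under 0.05, Rsad2 and Ifit2, against 14.2% of all genes. The log2 difference was above 0 in 38 of 44, against 48.3% of all genes, with a median of 0.18, against -0.01 over all genes. Rsad2 had 3.05, 3.59 and 2.64 scaled FPKM in SQ-3 hearts and 2.59, 1.84 and 0.946 in Model hearts (log2 difference 0.59, adjusted p = 0.286). Ifit2 had 8.76, 14.2 and 6.28 in SQ-3 hearts and 6.96, 5.13 and 4.97 in Model hearts (log2 difference 0.63, adjusted p = 0.328), with SQ-3 3 inside the Model range. Rsad2, Irf1 and Sp100 lay above Model in every library, 3 of 44 against 12.1% of all genes, and Ifi204 lay below it, 1 of 44 against 14.3%. These values also leaned on single libraries. Without Model 3 the median was 0.02, with 26 of 44 above 0 and 0 genes under 0.05, whereas it was 0.34 with 4 genes without Model 1 and 0.30 with 4 genes without SQ-3 3. The other libraries left out in turn gave medians of 0.12 to 0.20, with 4 genes under 0.05 without Model 2, 1 without SQ-3 1 and 0 without SQ-3 2.

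Libraries of a group did not move alike. LQ-40 3 lay above all Model libraries in 39 of the 44 genes, LQ-40 1 in 26 and LQ-40 2 in 23. SQ-3 1 did so in 25 genes and SQ-3 2 in 24, but SQ-3 3 in 4. Over all genes the share above all Model libraries was 29.7% to 35.8% in these 6 libraries. LQ-40 3 was also the library with the highest macrophage sum (658 scaled FPKM) and fibroblast sum (1888). The sum of 10 T and NK cell markers reached at most 10.9 in Model libraries and 6.46 in SQ-3 libraries. LQ-40 3 had the highest such sum (28.9) and the lowest cardiomyocyte sum (5596). The part of these markers in its higher values was not tested.

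Setting the compounds against each other, 0 of the 44 genes and 0.0% of the 13000 genes passed between LQ-40 and SQ-3 hearts, and limma-voom gave 0 of the 44 as well. This pair was the only direct comparison of compounds; the labels give no doses by which to match it. At an unadjusted p under 0.05 there were 2 of 44, against 3.03% of all genes. The log2 difference was above 0 in 40 of 44, against 50.7% of all genes, with a median of 0.22, and 8 genes lay above SQ-3 in every LQ-40 library, against 3.62% of all genes. Without LQ-40 3 the median was 0.14 and without SQ-3 3 it was 0.13, with 0 genes under 0.05 each time, and without LQ-40 1 there were 4 genes. Parp14 had 6.59, 6.38 and 7.92 scaled FPKM in LQ-40 hearts and 5.71, 5.15 and 4.26 in SQ-3 hearts, a log2 difference of 0.40 with a 95% interval of 0.06 to 0.74. Ifi47 had 4.87, 8.18 and 7.79 in LQ-40 hearts and 3.27, 4.11 and 3.51 in SQ-3 hearts, a difference of 0.76 with an interval of 0.10 to 1.42. Neither passed after adjustment (adjusted p = 0.9995 for both). Irf1 had 9.09, 14.3 and 11.8 in LQ-40 hearts and 8.17, 8.44 and 7.10 in SQ-3 hearts, without overlap, and its interval was -0.01 to 1.00. The intervals of Isg15 (-1.03 to 0.45) and Ifit3 (-1.13 to 1.35) reached past 2-fold on at least 1 side, so the data do not show that the compounds act alike on them.

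**Figure D4:**
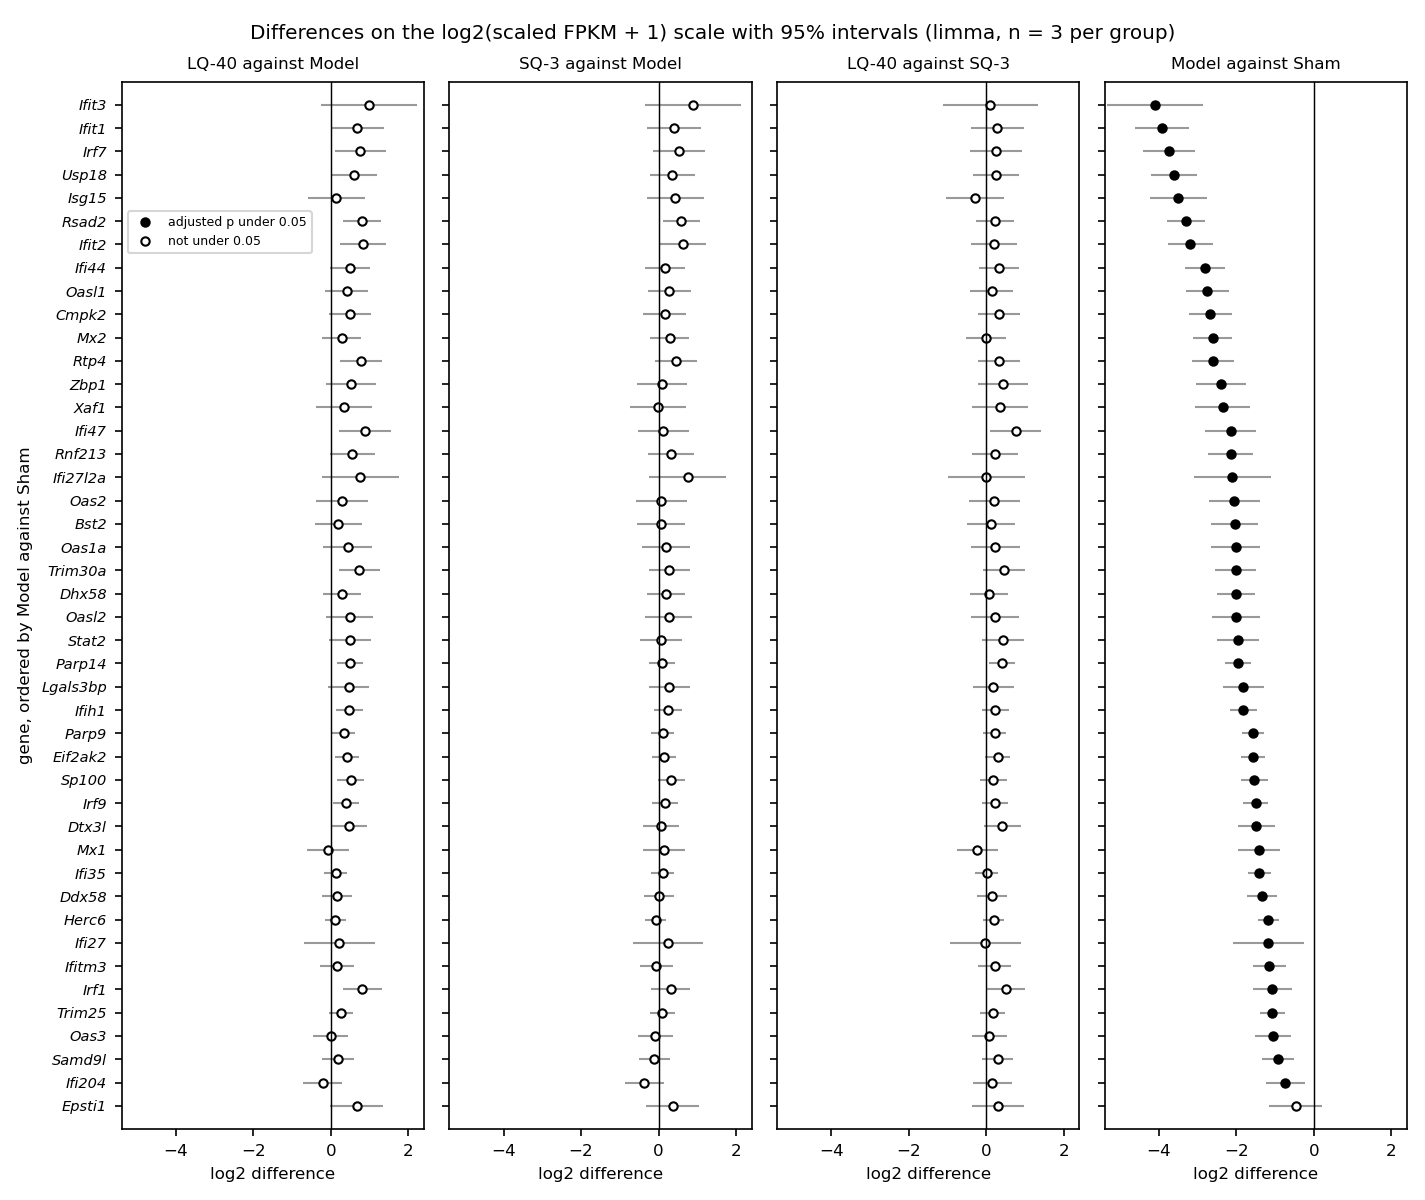
Log2 difference of each of the 44 genes with its 95% interval (limma, n = 3 per group), for LQ-40 against Model, SQ-3 against Model, LQ-40 against SQ-3 and Model against Sham; filled points passed an adjusted p of 0.05. In the panel of Model against Sham 43 points are filled and lie below 0, and in the other panels 0 are filled.

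Against Sham the compound groups were low too. In LQ-40 hearts 40 of the 44 genes fell and 0 rose, where 5.93% of all genes fell and 9.83% rose, with a median log2 difference of -1.46. In SQ-3 hearts 40 fell and 0 rose, where 1.82% of all genes fell and 4.86% rose, with a median of -1.78. Every LQ-40 library lay below every Sham library in 41 genes (14.0% of all genes), and every SQ-3 library in 42 (16.4%). Both comparisons share the Sham libraries. In LQ-40 libraries the macrophage markers summed to 368 to 658 scaled FPKM, the fibroblast markers to 653 to 1888 and the cardiomyocyte markers to 5596 to 11090. In SQ-3 libraries these sums were 309 to 421, 980.5 to 1324 and 8362 to 11170; their part in the result was not tested. The same 4 genes did not pass in either: Irf1, Ifi27, Ifi27l2a and Epsti1. Irf1 had 9.09, 14.3 and 11.8 scaled FPKM in LQ-40 hearts, 8.17, 8.44 and 7.10 in SQ-3 hearts and 11.7, 10.9 and 21.8 in Sham hearts. The log2 difference of Irf1 from Sham was -0.27 for LQ-40 (adjusted p = 0.424) and -0.77 for SQ-3 (adjusted p = 0.0706). LQ-40 and Sham libraries thus overlapped in Irf1, and SQ-3 and Sham libraries did not. Ifi27 had 55.3, 31.9 and 44.3 in LQ-40 hearts, 48.5, 46.5 and 36.7 in SQ-3 hearts and 117, 35.8 and 140.03 in Sham hearts, and without Sham 2 it passed for both LQ-40 (adjusted p = 0.0125) and SQ-3 (adjusted p = 0.0116). Ifi27l2a missed the threshold with an adjusted p of 0.0606 for LQ-40 and 0.0936 for SQ-3. Epsti1 reached its highest level of the 12 libraries in LQ-40 3, with 1.80, 2.99 and 5.52 in LQ-40 hearts, 2.05, 2.98 and 2.17 in SQ-3 hearts and 2.92, 1.66 and 3.65 in Sham hearts.

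Usp18, Ifit1 and Isg15, all far below Sham in Model hearts, fell in both compound groups as well. Usp18 had 3.60, 2.89 and 3.48 scaled FPKM in LQ-40 hearts, 2.94, 3.54 and 1.69 in SQ-3 hearts and 28.8, 29.9 and 45.2 in Sham hearts, 8.09-fold lower for LQ-40 (adjusted p = 0.00056) and 9.58-fold lower for SQ-3 (adjusted p = 0.000189). Ifit1 was 9.40-fold lower for LQ-40 and 11.5-fold lower for SQ-3, with 5.17, 4.10 and 7.93 in LQ-40 hearts and 5.003, 4.84 and 3.41 in SQ-3 hearts. Isg15 was 10.2-fold lower for LQ-40 and 8.36-fold lower for SQ-3, with 8.68, 7.42 and 14.6 in LQ-40 hearts and 12.8, 17.7 and 8.03 in SQ-3 hearts. Every library of either compound lay below every Sham library in these genes. Of the 30 other pathway genes, 3 rose (Ifnar1, Unc93b1 and Socs3) and 3 fell in LQ-40 hearts, Nlrc5 and Adar among them, where 9.83% of all genes rose and 5.93% fell. In SQ-3 hearts 1 rose (Ifnar1) and 4 fell, among them Nlrc5, Adar and Tlr3, where 4.86% of all genes rose and 1.82% fell. None of the 30 passed against Model for LQ-40, for SQ-3, or between the compounds; those under an unadjusted p of 0.05 numbered 5 (12.1% of all genes), 3 (14.2%) and 2 (3.03%).

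In the rat, the comparison asks how the 3D co-culture library differs from the library of 2D cells. Each has 1 library, so there is no replicate check and no test. Intervals are exact binomial 95% intervals of the read ratio and cover counting error only. The 3D library is named 3D-OGD-MF in the design text, under a title that speaks of hypoxia. The 3D format, the co-culture and any hypoxia therefore cannot be told apart in the ratios below. Of the 39 genes found in the rat, 37 were higher in the 3D library and 21 past 2-fold higher on the scale of scaled FPKM + 1, with a median log2 ratio of 1.17. Over the 19005 genes with reads in either library 51.0% were higher and 3.55% past 2-fold higher. Zbp1 (1 read in 3D and 4 in 2D) and Oas3 (0 reads in 3D and 2 in 2D) were lower. A filter of 1 FPKM in either library left 33 genes and set aside Zbp1, Oas1a, Oas2, Oas3, Bst2 and Epsti1. All 33 were higher in 3D, 21 past 2-fold, where among the 13405 genes that passed 50.5% were higher, 5.03% past 2-fold higher and 2.44% past 2-fold lower. That filter favours genes high in 1 library: 10 of the 33 were under 1 FPKM in 2D and passed through 3D alone, and all 10 are among the 21. Of the other 23 genes 11 were past 2-fold higher.

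By role, all 3 sensors compared were past 2-fold higher in the 3D library, against 5.03% of all genes compared. The filter had set aside Zbp1, which was lower in 3D. Dhx58, with 44 reads in 3D and 2 in 2D, passed it through 3D alone. Ifih1 had 16.2 scaled FPKM (736 reads) in the 3D library and 2.99 (158 reads) in the 2D library, a ratio of 5.41 (4.55 to 6.47). Of the 4 transcription factors Irf1 had 49.05 in 3D and 14.4 in 2D (ratio 3.40) and Irf7 13.3 in 3D and 4.30 in 2D (ratio 3.10), while Irf9 and Stat2 were 1.95 and 1.88 times higher. Among IFIT genes Ifit3 had 37.1 scaled FPKM (885 reads) in 3D and 0.505 (14 reads) in 2D, a ratio of 73.4 (43.5 to 135). Ifit1 had 17.1 (412 reads) in 3D and 0.321 (9 reads) in 2D, a ratio of 53.2 (27.7 to 117). Ifit2 was 3.98 times higher, and Eif2ak2 1.43 times. Ifit1 and Ifit3 were thus close to undetected in the 2D library, and Ifit2 was not.

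Rsad2 had 52.3 scaled FPKM (2235 reads) in the 3D library and 1.23 (61 reads) in the 2D library, a ratio of 42.5 (33 to 55.8). Mx1 had 123 reads in 3D and 1 in 2D, a ratio of 143 with an interval of 25.2 to 5687. Oasl2, the only oligoadenylate synthetase gene that could be compared, had 11.97 in 3D and 0.663 in 2D, a ratio of 18.1 (12.1 to 28.3). Isg15 had 15.3 in 3D and 3.93 in 2D, a ratio of 3.88 (2.96 to 5.15). Usp18 had 21.1 in 3D and 12.8 in 2D, a ratio of 1.65 (1.42 to 1.91). The modifier and the enzyme that removes it thus had intervals that did not overlap. At the low end, Ifi27 had 167 in 3D and 158 in 2D (ratio 1.05, 0.98 to 1.13), Sp100 a ratio of 1.31 (1.02 to 1.69), Ifitm3 of 1.64 and Rnf213 of 1.74. The interval of Ifi27 included 1.

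**Figure D5:**
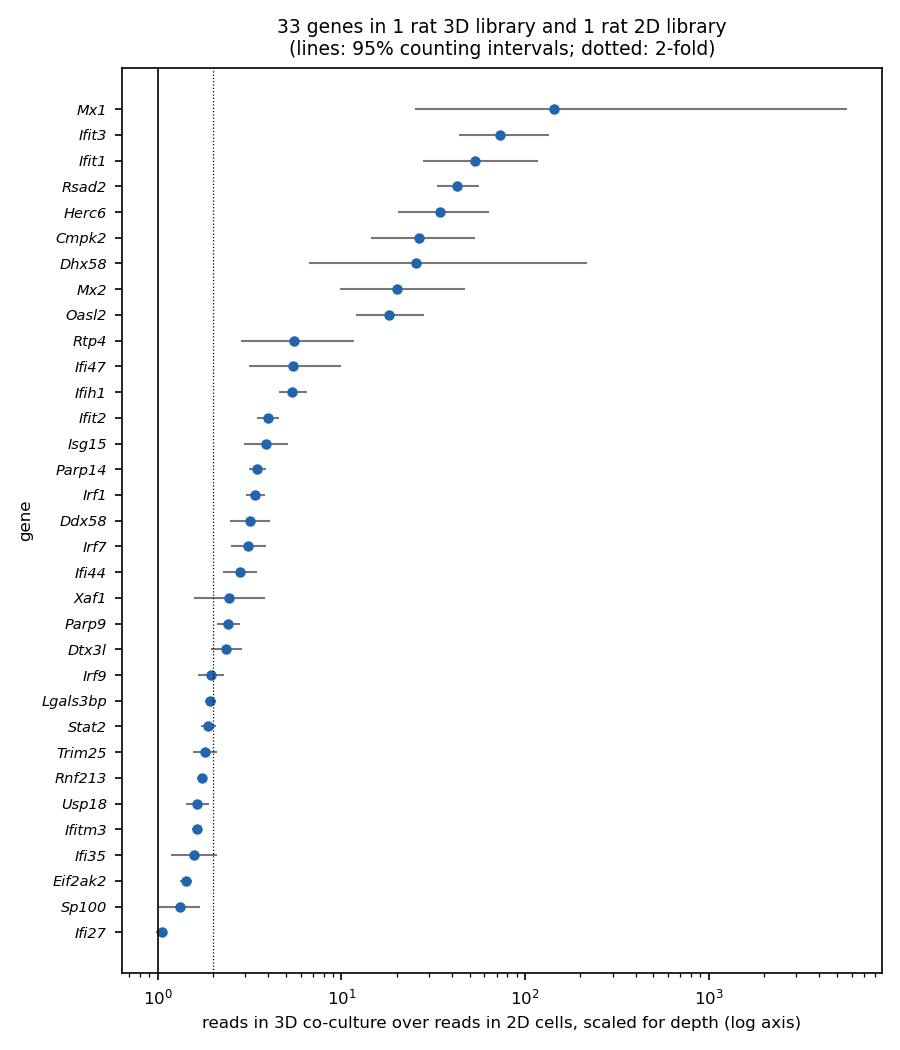
Reads in the rat 3D library over reads in the rat 2D library, scaled for depth, for the 33 genes compared (log axis; lines are exact binomial 95% intervals, which cover counting error only, and the dotted line marks a read ratio of 2). On this scale 22 genes lie past the line, 1 more (Dtx3l) than on the scale of scaled FPKM + 1. All 33 points lie right of 1, from 1.05 for Ifi27 to 143 for Mx1, whose interval is wide because the 2D library held 1 read.

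Of the other pathway genes in the rat libraries, 3 of the 29 compared were past 2-fold higher in 3D and 0 past 2-fold lower, where 5.03% of all genes compared were past 2-fold higher and 2.44% lower. These were Jak2, a kinase of the interferon gamma receptor (53.7 in 3D and 15.2 in 2D), Ifngr1, a chain of that receptor (76.2 in 3D and 35.98 in 2D), and Irf5 (7.96 in 3D and 3.27 in 2D). Of 9 ligand genes found in the rat, 8 had 0 reads in both libraries.

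The labelled cell types of the rat libraries were checked against their markers. The 5 cardiomyocyte markers in the rat table summed to 8.96 scaled FPKM in 3D and 9.55 in 2D, most of it Tnnt2 (6.81 in 3D and 6.53 in 2D). Actc1 had 6 reads in 3D and 10 in 2D, so this defining transcript of cardiomyocytes was near absent. Of the 8 macrophage markers in the table C1qa, C1qb and C1qc had at most 2 reads in either library, while Cd14 had 24.3 scaled FPKM in 3D and 16.6 in 2D and Csf1r 2.43 in 3D and 3.84 in 2D. Fibroblast markers were high in both, with Col1a1 at 1788 in 3D and 2007 in 2D, and of the 5, 3 were past 2-fold higher in 3D and 1 (Tcf21) past 2-fold lower. The 3 plasmacytoid dendritic cell markers in the table had 0 reads. The part of the cell mixture in the higher levels of the 33 genes was not tested.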

How the data were processed

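Messenger RNA of 12 mouse heart libraries and 2 rat cell libraries was captured with poly-T beads, per the labels' protocols, which describe a NEB and a strand-specific library kit and leave the choice unstated. Builds mm10 and Rnor_6.0 and the tools HISAT2 2.0.5, featureCounts 1.5.0-p3 and fastp are listed, per the submitters' processing notes. Not given in the sources used here are the annotation release, the strand setting and the treatment of reads with several matches. Genes that share exon bases with another gene (16 of the 44 in GENCODE M21, whose coordinates for all 44 equal those of the files) and genes with near-identical copies (such as Ifit3, Oas1a, Ifi27l2a, Ifi204, Trim30a, Mx1 and Mx2) are uncertain.

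The authors deposited FPKM values with gene lengths and coordinates. FPKM times gene length gave whole reads (tolerance 0.02), and 1 read per kilobase of gene stood for 0.0566 to 0.0805 FPKM in the mouse. Scaled FPKM are FPKM over a median-of-ratios factor per library (0.979 to 1.03) from the 10422 mouse genes at 1 FPKM or more throughout. Values of log2(scaled FPKM + 1) were fitted with limma 3.58.1 (R 4.3.3; eBayes with trend, two-sided), all 12 libraries in 1 fit; every adjusted p is from this fit unless an alternative is named. The steps were run on simulated reads with known fold changes and the same spread setting for every gene. That run checks the steps and does not measure how they perform at the spread of these libraries. Rat values were compared as ratios without a test over genes that reached 1 FPKM in the 3D or the 2D library.

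The 44 genes, the pathway and marker lists and the tests were chosen with earlier results of these data known. All 44 genes may be named; values of every library are given for up to 2 genes per role with the smallest p and for genes against the majority. Values of 1 pathway gene are not reported here. In the rat, genes with at least 10 FPKM were preferred. Alternatives tried were limma-voom on recovered reads, a replicate block, leaving out each library, fitting only the 2 groups compared, quantile normalization, the deposited FPKM without scaling, 0.1 as pseudocount, and a filter that was absent or asked for a mean of 5 FPKM.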

Additional observations from a re-analysis of the deposited data

How the results depend on the processing

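Under all alternatives that were run, the count of the 44 genes called in each mouse comparison, and of those past 2-fold in the rat, stayed within 1.5 times the reported count. In Model against Sham 35 of the 35 genes left by a mean of at least 5 FPKM fell, and 41 to 43 of 44 under the other settings with all libraries. Leaving out 1 library gave 40 to 42 in Model against Sham, 35 to 40 in LQ-40 against Sham, 37 to 40 in SQ-3 against Sham, and 0 to 0 in LQ-40 against Model, SQ-3 against Model and LQ-40 against SQ-3. Counts over all genes, the background of these results, moved more. They were 5053 in Model against Sham (3276 without Model 1), 87 in LQ-40 against Model (13 with only those groups in the fit, 156 without LQ-40 3), 45 in SQ-3 against Model (11 without Model 3, 68 with only those groups), and 0 between the compounds (2 with no filter). They were 2049 in LQ-40 against Sham (257 with only those groups, 4376 without LQ-40 1) and 868 in SQ-3 against Sham (1337 with only those groups, 215 without Sham 2). With no filter 129 rose and 133 fell in SQ-3 against Sham. In the rat 16 to 22 genes were past 2-fold. Of 1651 single-gene values under alternatives 1640 kept direction and call, 8 lost a call (all Ifi27 in Model against Sham), 3 gained one and 0 reversed.

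Replicate numbers did not pair the libraries: same-numbered libraries correlated at a median of -0.070 in their deviations and 1 of 12 libraries correlated best with its own number. With the replicate block 43 genes fell in Model against Sham and 40 against Sham for each compound, and 0 were called in the other comparisons, so it changed none of these counts of called genes. Genes under an unadjusted p of 0.05 then numbered 13 in LQ-40 against Model, 1 in SQ-3 against Model and 2 between the compounds. Depth limits the low genes: group means outside Sham were 0.262 to 0.343 scaled FPKM for Oas3 and 0.600 to 0.924 for Herc6 and Mx1, and ligand genes had at most 4 reads.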

Other observations

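Neutrophil markers were uneven among LQ-40 hearts. S100a9 had 35.2, 1.93 and 48.3 scaled FPKM in LQ-40 hearts, against 1.56, 5.26 and 2.81 in Model hearts, and S100a8 had 20.4, 1.09 and 18.3 in LQ-40 hearts, against 1.26, 3.09 and 1.43 in Model hearts. LQ-40 1 and LQ-40 3 were high in both genes and LQ-40 2 was not. The other neutrophil markers were mixed. Retnlg had 4.69, 0.212 and 2.31 in LQ-40 hearts, also lowest in LQ-40 2. Csf3r had 2.27, 2.58 and 8.09 in LQ-40 hearts and 2.95, 2.32 and 2.19 in Model hearts, with LQ-40 1 inside the Model range. Cxcr2 had 0.633, 0.165 and 3.32 in LQ-40 hearts, highest in LQ-40 3. Granzyme B (Gzmb), a protein of cytotoxic lymphocytes, had 0.161, 0.702 and 5.67 in LQ-40 hearts and 0.81, 0.0932 and 0.0408 in Model hearts, with LQ-40 3 above the rest. S100a8, S100a9 and Gzmb were chosen after their values were seen.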
